A study of Homo sapiens with 12 samples.

Results

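GSDME (gasdermin E), the caspases CASP2, CASP6, CASP8 and CASP9, the apoptosome scaffold APAF1, the caspase inhibitor XIAP and its antagonist DIABLO are the 8 genes described here, of 20323 genes in the deposited tables. They were named as members of this pathway and matched by symbol, each stood at 1 Ensembl identifier, and 8 of 8 passed the filter on low counts. RNA was sequenced from A549, a human lung adenocarcinoma line, in 4 groups of 3 libraries. The groups were LKB1-deficient cells pretreated with high-dose AA, LKB1-deficient cells pretreated with PBS, LKB1-intact cells pretreated with high-dose AA, and LKB1-intact cells pretreated with PBS. The titles call the AA libraries VitC (vitamin C, ascorbic acid). LKB1 is the kinase encoded by STK11. The LKB1-intact libraries carry the genotype label WT. The deficient libraries are titled con. The dose and duration of AA, the way intact and deficient cells were obtained and whether either is 1 clone are not stated by the labels. The labels do not state separate cultures for the 3 libraries of a group, so the p-values speak of the spread from library to library, part or all of which may be technical. Per its title, the series asks whether loss of LKB1 leaves lung cancer cells open to pyroptosis under AA.

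Gasdermin E is a cytosolic protein that caspases cut, and its freed amino-terminal part forms pores in the plasma membrane, a lytic death called pyroptosis. The caspase cascade is started by initiator caspases: caspase-9 on the apoptosome that APAF1 builds when cytochrome c leaves mitochondria, and caspase-8 on death receptor complexes. XIAP binds and inhibits caspases, and DIABLO (Smac), released from mitochondria, displaces it. These are events at the protein level. The values below are messenger RNA levels and carry no measure of cleavage or of cell death.

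Libraries held 16055534 to 20306129 estimated counts, and a library held between 182 and 2647 counts for a given gene of the 8. STK11 was lower in the deficient libraries, at 5.61, 7.34 and 6.97 CPM (counts scaled to library size with TMM factors) in deficient cells under AA, 5.94, 6.56 and 4.86 CPM in deficient cells under PBS, 24.3, 28.2 and 25.6 CPM in intact cells under AA and 25.4, 24.6 and 23.6 CPM in intact cells under PBS. Of 5 epithelial markers, KRT8 (434 to 1120 FPKM) and KRT18 (484 to 1010 FPKM) were high, EPCAM stood at 4.07 to 7.48 FPKM, and KRT19 and CDH1 did not exceed 0.50 FPKM. The lung lineage genes NKX2-1, SFTPA1, SFTPB and SFTPC were at or near 0, while ABCA3 stood at 22.1 to 28.9 FPKM. The summed epithelial markers ran from 1170 to 1200 FPKM in deficient cells under AA, 1170 to 1280 FPKM in deficient cells under PBS, 2060 to 2130 FPKM in intact cells under AA and 1310 to 1360 FPKM in intact cells under PBS. Of 3 leukocyte markers, PTPRC and CD3E were at or near 0 and CD68 stood at 56.9 to 79.5 FPKM. The fibroblast and endothelial markers PDGFRA, PECAM1 and VWF did not exceed 0.082 FPKM, PDGFRB and CDH5 stood at 0.032 to 1.4 and 0.216 to 2.93 FPKM, and COL1A1 stood at 2.84 to 5.36 FPKM. Mitochondrial genes took 2.53 to 2.62% of counts in deficient cells under AA, 5.07 to 5.36% in deficient cells under PBS, 3.61 to 3.72% in intact cells under AA and 5.16 to 5.33% in intact cells under PBS. The part of the marker and mitochondrial levels in the results was not tested. AA fold changes also followed transcript length across all genes. A fit with the length trend of each library as an offset was therefore added after the data were seen, and its values stand beside each of the 8 genes for which they end an AA call or move it by over 1.5 times.

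In LKB1-deficient cells, AA was followed by higher GSDME, CASP6, CASP9 and DIABLO and by lower CASP2, APAF1 and XIAP, and CASP8 did not pass the test. In LKB1-intact cells, CASP6, CASP9 and APAF1 were higher and CASP2 and XIAP lower, while GSDME, CASP8 and DIABLO did not pass. The effect of AA itself differed between the genotypes for GSDME, DIABLO, APAF1 and CASP2. Called here means an adjusted p under 0.05 (Benjamini-Hochberg) in edgeR's quasi-likelihood test over 12718 genes. In deficient cells 4 of 8 were called higher and 3 lower, against a background of 37.0% of all tested genes called higher and 37.4% lower. In intact cells 3 were called higher and 2 lower, against 34.5% and 35.2% of all genes. For the difference between the effects, 2 were called higher and 2 lower, against 21.6% and 23.0% of all genes. With 8 genes and backgrounds of this size, the counts themselves single out nothing about the axis, and the values of each gene follow.

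**Figure D1:**
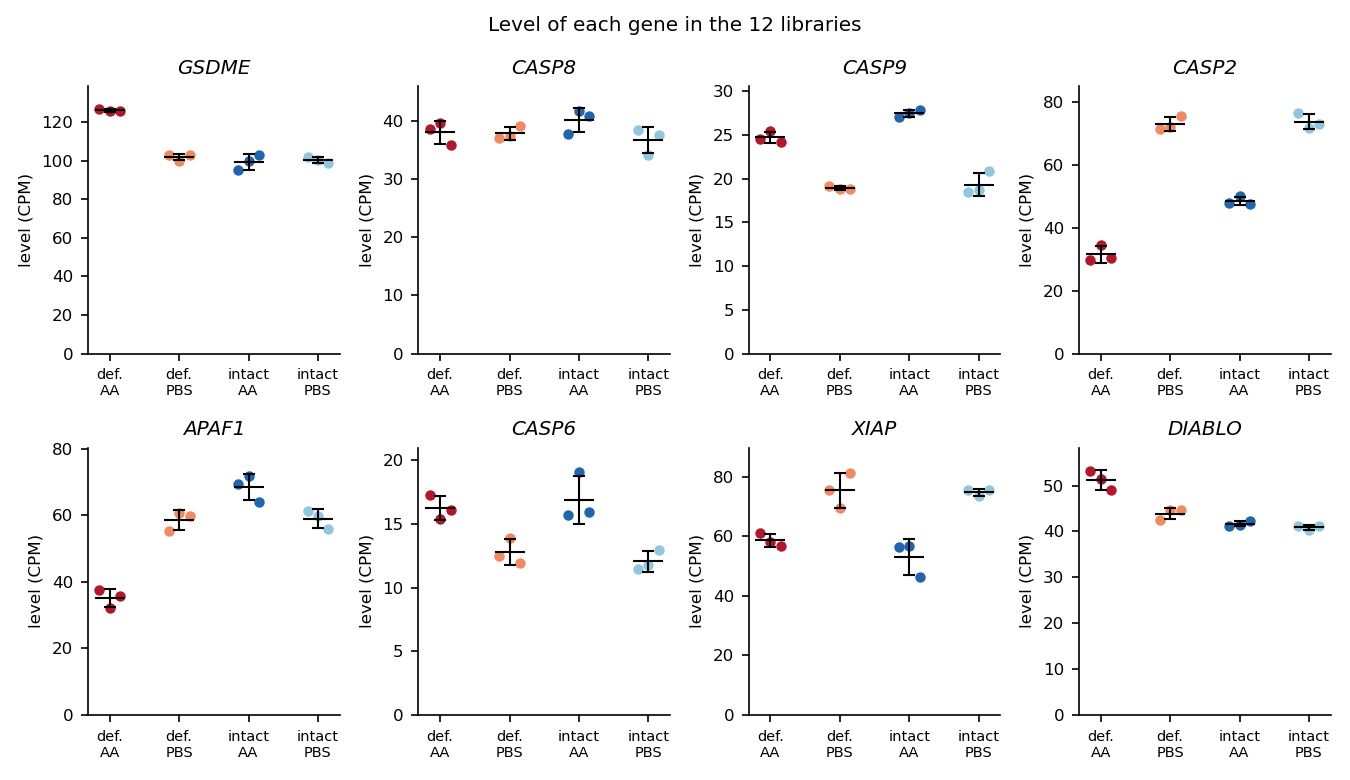
Level of each of the 8 genes in the 12 libraries, in CPM on axes that start at 0, by group (def., LKB1-deficient; intact, LKB1-intact). Points are libraries, long bars are group means and error bars are SD (n = 3). GSDME is at 126 to 127 CPM in the 3 deficient AA libraries and at or under 103.0 CPM in the other 9, and APAF1 is at or under 37.7 CPM in the deficient AA libraries and at or above 55.2 CPM elsewhere.

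GSDME, the pore-forming end of the axis, lies on the minus strand of chromosome 7 at 24698351 to 24758113 (GRCh38, GENCODE 29). It had 127, 126 and 126 CPM in deficient cells under AA, against 103, 100 and 103 CPM in deficient cells under PBS. Intact cells had 95.1, 100 and 103 CPM under AA, against 102, 100 and 98.8 CPM under PBS. All 3 deficient AA libraries were above all 9 others, and the AA and PBS libraries of intact cells overlapped. GSDME rose by 0.31 ± 0.04 (log2 fold change ± SE) under AA in deficient cells, an increase of 23.6% (edgeR, adjusted p = 1.6e-07). In intact cells the log2 fold change was -0.01 ± 0.04 (edgeR, adjusted p = 0.791). The effect in deficient cells exceeded that in intact cells by 0.32 ± 0.05 on the log2 scale (edgeR, adjusted p = 4.17e-05). Under AA, deficient cells also exceeded intact cells by 0.34 ± 0.04 (edgeR, adjusted p = 5.25e-08). Both genotypes thus started at about 100 CPM, and the elevated level was found in 1 of the 4 groups. In bulk RNA, fewer cells with the transcript and less of it per cell cannot be told apart, in this and every following comparison.

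No other gasdermin had a usable level. GSDMA was listed at 0 in all 12 libraries, and GSDMB, GSDMC and GSDMD, the gasdermin cut by inflammatory caspases, did not exceed 10 counts in any library and failed the filter. PJVK (pejvakin) was tested, with log2 fold changes of -0.01 ± 0.43 in deficient cells and -0.40 ± 0.41 in intact cells (edgeR, adjusted p = 0.983 and 0.399), an error too wide to set a direction.

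The 5 genes whose log2 CPM followed GSDME most closely over the 12 libraries, of 9687 genes compared, were SH2D2A, ZC3H8, TRAPPC6B, TAX1BP1 and NOP58, with Pearson's r of 0.993, 0.989, 0.986, 0.986 and 0.983. The 12 points of each share the 4 groups, so the coefficient is a description of a common group pattern. ZC3H8 averaged 85.6 ± 1.21 CPM in deficient cells under AA, 35.8 ± 0.95 CPM in deficient cells under PBS, 34.4 ± 2.76 CPM in intact cells under AA and 34.9 ± 0.55 CPM in intact cells under PBS (SD, n = 3 each). SH2D2A averaged 44.5 ± 1.99 CPM in deficient cells under AA and 21.45 to 23.55 CPM in the other 3 groups. Each of the 5 was highest in deficient cells under AA. TAX1BP1, for instance, averaged 365.2 ± 3.68 CPM in deficient cells under AA, against 286.9 ± 0.59 CPM in deficient cells under PBS.

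APAF1, the scaffold that binds cytochrome c and recruits caspase-9, lies on the plus strand of chromosome 12 at 98645141 to 98735433 (GRCh38, GENCODE 29). It had 37.7, 32.2 and 35.6 CPM in deficient cells under AA, against 55.2, 60.7 and 59.7 CPM in deficient cells under PBS. LKB1-intact libraries had 69.4, 71.8 and 64.0 CPM under AA, against 61.3, 59.8 and 55.9 CPM under PBS. The groups separated in opposite directions, with the AA libraries below the PBS libraries in deficient cells and above them in intact cells. APAF1 fell by 0.73 ± 0.06 (log2 ± SE) in deficient cells (edgeR, adjusted p = 7.18e-10). In intact cells it rose by 0.21 ± 0.06 (edgeR, adjusted p = 0.00277). This rise was 0.15 ± 0.07 on the log2(FPKM + 1) scale, where it was not called (limma, adjusted p = 0.0955). The fit with the length offset gave -0.30 ± 0.06 in deficient cells and 0.55 ± 0.05 in intact cells (edgeR, adjusted p = 5.17e-05 and 2.09e-09). The difference between the effects was -0.95 (SE 0.09; edgeR, adjusted p = 1.11e-08), the largest in size among the 8. The annotated gene ANKS1B overlaps the last 8977 bases of APAF1 on the opposite strand and averaged 57.6 counts per library. The sources used here do not say if counting was stranded, so reads of the shared stretch cannot be assigned between them.

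The AA effect differed between genotypes for GSDME and APAF1 and each has 1 annotated start in the promoter table, so the 250 bases before that start are shown (RefSeq, GRCh38.p14, 5′ to 3′ on the strand of the gene). The windows are chr7:24757465-24757714 on the minus strand and chr12:98645040-98645289 on the plus strand. By the GENCODE positions given above, the GSDME window lies wholly inside the gene. The APAF1 window begins before its gene and ends inside it. The windows thus hold for the RefSeq start alone, and the bases before the outermost GENCODE start were not examined. Capitals mark the GC box GGGCGG, the core of sites of Sp family factors, read on either strand.
GSDME: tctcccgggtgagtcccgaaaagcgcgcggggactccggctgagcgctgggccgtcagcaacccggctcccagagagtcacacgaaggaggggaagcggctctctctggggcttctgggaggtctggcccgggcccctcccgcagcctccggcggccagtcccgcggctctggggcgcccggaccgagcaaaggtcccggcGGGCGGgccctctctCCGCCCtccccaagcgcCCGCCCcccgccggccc
APAF1: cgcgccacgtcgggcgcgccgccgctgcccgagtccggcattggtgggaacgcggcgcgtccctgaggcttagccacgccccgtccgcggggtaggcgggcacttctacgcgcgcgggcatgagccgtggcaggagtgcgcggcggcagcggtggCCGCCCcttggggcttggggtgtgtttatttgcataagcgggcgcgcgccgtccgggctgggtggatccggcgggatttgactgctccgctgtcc
The GSDME window holds 3 GC boxes and the APAF1 window 1, and 42.6% of 35116 promoter windows of the same length hold at least 1. Both windows are rich in GC (76.4% for GSDME and 73.6% for APAF1, against a median of 58.0% over all windows) and in CpG (28 and 38, against a median of 11). Neither window holds the letters of AP-1 (TGANTCA), CRE (TGACGTCA), an ATF4-type element (TGATGNAA), the antioxidant response element (TGACNNNGC) or EGR1 (GCGNGGGCG), which occur on either strand in 6.6%, 1.6%, 3.1%, 10.9% and 8.4% of windows. The GC box and the EGR1 letters can share bases, and no such shared match occurs here. These letters describe the windows and are no evidence of binding.

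CASP9, the initiator caspase of the apoptosome, rose under AA in both genotypes. It had 24.5, 25.5 and 24.2 CPM in deficient cells under AA, against 19.2, 18.8 and 18.8 CPM in deficient cells under PBS. The level in intact cells was 27.1, 27.5 and 27.8 CPM under AA, against 18.4, 18.7 and 20.8 CPM under PBS. In each genotype all AA libraries were above all PBS libraries. The increase was 0.38 ± 0.07 on the log2 scale in deficient cells (edgeR, adjusted p = 2.68e-05) and 0.51 ± 0.07 in intact cells (edgeR, adjusted p = 7.02e-07). In deficient cells the length offset brought the increase to 0.20 ± 0.07 (edgeR, adjusted p = 0.0111). The effects differed by -0.12 ± 0.09, which was not called (edgeR, adjusted p = 0.311). In deficient cells, then, the scaffold APAF1 and its caspase changed in opposite directions, whereas both rose in intact cells.

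XIAP, the inhibitor that binds caspase-9, was lower in counts under AA in both genotypes. It had 61.2, 58.0 and 56.9 CPM in deficient cells under AA, against 75.4, 69.6 and 81.4 CPM in deficient cells under PBS. Intact cells stood at 56.5, 56.9 and 46.2 CPM under AA, against 75.4, 73.5 and 75.4 CPM under PBS. No AA library reached the lowest PBS library of its genotype. XIAP fell by 0.36 ± 0.07 on the log2 scale in deficient cells (edgeR, adjusted p = 3.62e-05) and by 0.49 ± 0.07 in intact cells (edgeR, adjusted p = 9.44e-07). The effects differed by 0.13 ± 0.09, which was not called (edgeR, adjusted p = 0.264). On the log2(FPKM + 1) scale the log2 fold change of XIAP was 0.14 ± 0.16 in deficient cells and -0.05 ± 0.16 in intact cells, and neither was called (limma, adjusted p = 0.466 and 0.787). In counts with the length offset it was -0.09 ± 0.06 in deficient cells, where it was not called, and -0.29 ± 0.06 in intact cells, where it was (edgeR, adjusted p = 0.194 and 0.000235).

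The count and FPKM scales differ in the length by which a count is divided, and only the count fit applies TMM factors. Dividing count by FPKM and library total gives that length, which ran from 3596 to 7141 bases for XIAP. For GSDME it ran from 2027 to 2197 bases. The fall of XIAP in deficient cells was thus called in counts without the length offset, and that in intact cells in counts with and without it, while neither was called in FPKM.

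**Figure D2:**
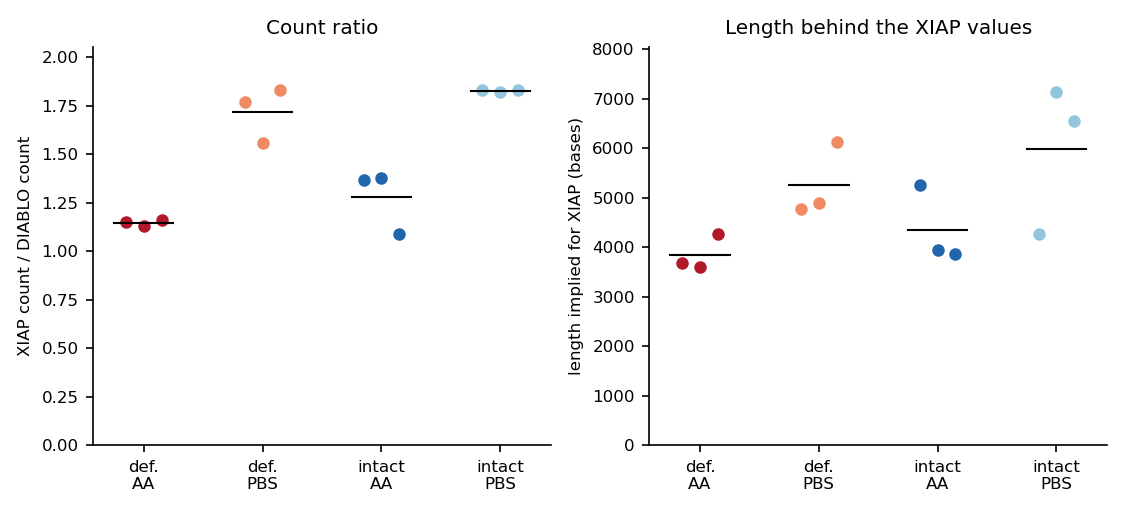
Left, XIAP counts divided by DIABLO counts in each library, a ratio without length correction; right, the length in bases implied for XIAP by the deposited counts and FPKM. Points are libraries and bars are group means (def., LKB1-deficient; intact, LKB1-intact); the count ratio is at or under 1.38 in the 6 AA libraries and at or above 1.56 in the 6 PBS libraries.

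DIABLO, the mitochondrial antagonist of XIAP, was higher under AA in deficient cells. It had 53.2, 51.4 and 49.0 CPM in deficient cells under AA, against 42.5, 44.6 and 44.6 CPM in deficient cells under PBS. The intact libraries held 41.2, 41.4 and 42.3 CPM under AA, against 41.1, 40.3 and 41.3 CPM under PBS. The deficient AA libraries were above the other 9, and the intact groups overlapped. DIABLO rose by 0.22 ± 0.05 on the log2 scale in deficient cells (edgeR, adjusted p = 0.000387), and its log2 fold change in intact cells was 0.02 ± 0.05 (edgeR, adjusted p = 0.678). Both values were negative with the length offset, at -0.10 ± 0.05 in deficient cells, which was not called, and -0.19 ± 0.05 in intact cells, which was (edgeR, adjusted p = 0.0903 and 0.00254). The difference between the effects was 0.20 ± 0.07 (edgeR, adjusted p = 0.0283). That call was lost with DESeq2 (adjusted p = 0.065), and it was lost in edgeR without replicate 1 of any of the 4 groups or without replicate 3 of intact cells under PBS. Leaving out 1 library gave adjusted p-values of 0.0182 to 0.0812. The difference was 0.09 ± 0.07 and not called with the length offset (edgeR, adjusted p = 0.309). The gene overlaps B3GNT4 by 1290 bases on the opposite strand, a readthrough gene on its own strand (4.5 counts per library on average) and a second annotated DIABLO identifier with 0 counts. Its deposited counts carry a fraction in 11 of 12 libraries.

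As a ratio of counts, XIAP to DIABLO stood at 1.15, 1.13 and 1.16 in deficient cells under AA, against 1.77, 1.56 and 1.83 in deficient cells under PBS. In intact cells it stood at 1.37, 1.38 and 1.09 under AA, against 1.83, 1.82 and 1.83 under PBS. The AA libraries were below the PBS libraries in both genotypes. As a ratio of FPKM the groups overlapped, at 0.355 to 0.438 in deficient cells under AA, 0.390 to 0.465 in deficient cells under PBS, 0.355 to 0.487 in intact cells under AA and 0.321 to 0.593 in intact cells under PBS. With the length offset, XIAP and DIABLO were at -0.09 ± 0.06 and -0.10 ± 0.05 in deficient cells, and neither was called. In intact cells they were at -0.29 ± 0.06 and -0.19 ± 0.05, and both were called lower. The ratio itself was not refitted with the offset, so its fall applies to counts without length correction.

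CASP2, an initiator caspase activated on the PIDDosome, had the largest fold change of the 8 under AA. It had 29.6, 34.5 and 30.5 CPM in deficient cells under AA, against 71.5, 72.2 and 75.8 CPM in deficient cells under PBS. Among intact cells the values were 48.1, 50.0 and 47.7 CPM under AA, against 76.5, 71.8 and 73.2 CPM under PBS. Each AA library was below every PBS library, and the deficient AA libraries were below the intact AA libraries. CASP2 fell by 1.22 ± 0.06 on the log2 scale in deficient cells, a decrease of 57.0% (edgeR, adjusted p = 1.77e-14). In intact cells it fell by 0.60 ± 0.05, or 34.2% (edgeR, adjusted p = 1.51e-09). The difference between the effects was -0.61 ± 0.08 (edgeR, adjusted p = 1.15e-06). Of the genes of the PIDDosome, the scaffold gene PIDD1 fell by 0.38 ± 0.15 in deficient cells (edgeR, adjusted p = 0.026). The adaptor gene CRADD rose by 0.46 ± 0.12 (edgeR, adjusted p = 0.00136), so the 3 did not move together in deficient cells. In intact cells PIDD1 and CRADD were at 0.25 ± 0.14 and 0.22 ± 0.12, and neither was called (edgeR, adjusted p = 0.125 and 0.112).

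CASP8, the initiator caspase of death receptor complexes, was called in none of the 5 comparisons. It had 38.6, 39.7 and 35.8 CPM in deficient cells under AA, against 37.1, 37.4 and 39.2 CPM in deficient cells under PBS. Intact cells had 37.7, 41.7 and 40.8 CPM under AA, against 38.3, 34.2 and 37.5 CPM under PBS. Groups overlapped in both genotypes. The log2 fold change was 0.00 ± 0.06 in deficient cells (edgeR, adjusted p = 0.953) and 0.13 ± 0.06 in intact cells (edgeR, adjusted p = 0.0652). The value in intact cells was called with upper quartile factors (edgeR, adjusted p = 0.00759), and also without replicate 1 of intact cells under AA or replicate 1 of intact cells under PBS (adjusted p = 0.0296 and 0.0483).

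CASP6, an executioner caspase that cuts nuclear lamins, was the member with the fewest counts and rose under AA in both genotypes. It had 17.3, 15.4 and 16.1 CPM in deficient cells under AA, against 12.5, 13.9 and 11.9 CPM in deficient cells under PBS. For intact cells the levels were 15.7, 19.1 and 15.9 CPM under AA, against 11.45, 11.79 and 12.97 CPM under PBS. All AA libraries were above all PBS libraries. The increase was 0.35 ± 0.10 on the log2 scale in deficient cells (edgeR, adjusted p = 0.00264) and 0.48 ± 0.10 in intact cells (edgeR, adjusted p = 0.000144). The value in deficient cells was 0.11 ± 0.10 and not called with the length offset (edgeR, adjusted p = 0.327). The effects differed by -0.13 ± 0.14, which was not called (edgeR, adjusted p = 0.456). CASP6 shares 105 bases with MCUB on the opposite strand.

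**Figure D3:**
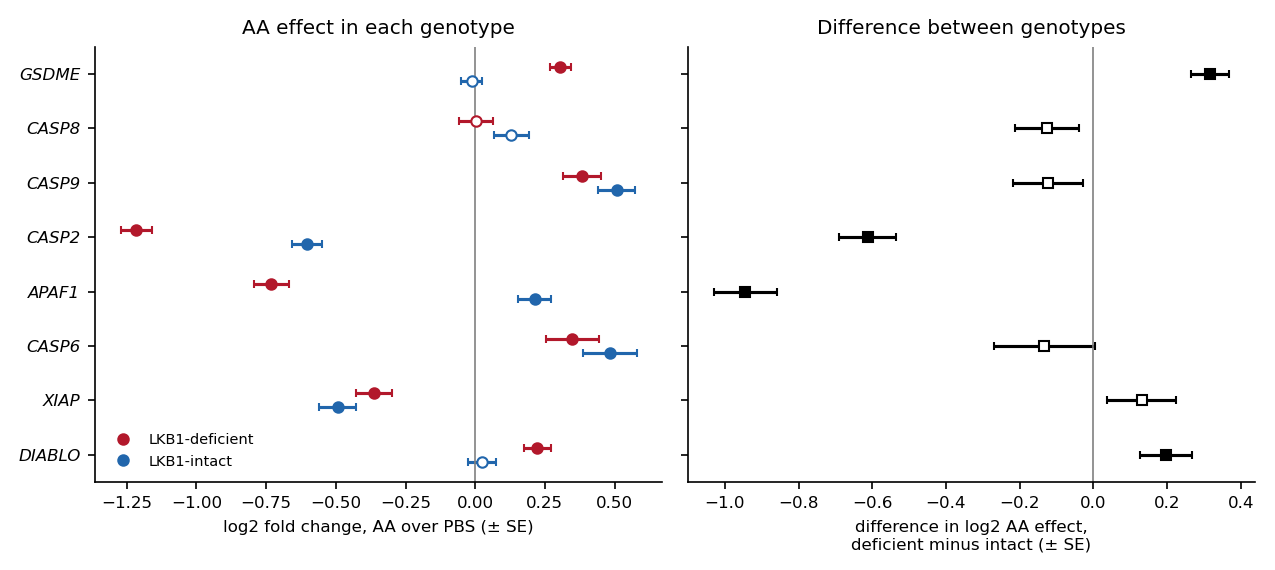
Log2 fold changes of the 8 genes with SE bars from edgeR, with AA over PBS in each genotype on the left and the difference between these effects, deficient minus intact, on the right; a filled marker is a gene called at an adjusted p under 0.05 and an open marker one that is not. GSDME is at 0.31 in deficient and -0.01 in intact cells, APAF1 at -0.73 in deficient and 0.21 in intact cells, and their differences are 0.32 and -0.95.

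Without AA the genotypes did not differ detectably in the axis in counts. Under PBS, 0 of 8 genes were called between deficient and intact cells, with log2 fold changes of -0.03 to 0.10. Over all genes 0.0550% were called higher and 0.220% lower. edgeR gave 0 of the 8 an unadjusted p under 0.05, and DESeq2 and limma-voom called 0 and likewise gave 0 an unadjusted p under 0.05. On the log2(FPKM + 1) scale DIABLO was at 0.163 ± 0.0485 and GSDME at 0.075 ± 0.0335, and neither was called (limma, adjusted p = 0.42 and 0.589). In FPKM, though, the deficient PBS libraries lay above the intact PBS libraries for both genes. DIABLO ran from 33.6 to 36.0 against 29.5 to 31.6 FPKM, and GSDME from 48.5 to 50.5 against 46.4 to 47.1 FPKM. Under AA, 2 of 8 were called higher and 3 lower in deficient than in intact cells, against 28.7% and 30.3% of all genes. GSDME (0.34 ± 0.04, adjusted p = 5.25e-08) and DIABLO (0.30 ± 0.05, adjusted p = 2.06e-05) were the higher pair in edgeR. APAF1 (-0.96 ± 0.06, adjusted p = 1.56e-11) and CASP2 (-0.63 ± 0.06, adjusted p = 4.6e-09) were lower in edgeR. CASP9 was lower by a narrow margin, at -0.15 ± 0.06 (edgeR, adjusted p = 0.0453). Its call was lost in each fit that left out 1 of the AA libraries (edgeR, adjusted p = 0.0501 to 0.119), and its sign turned on the FPKM scale. DESeq2 also lost the call (adjusted p = 0.111), while the fit with the length offset kept it, at -0.22 ± 0.06 (edgeR, adjusted p = 0.00508). The difference in XIAP was 0.14 ± 0.07 (edgeR, adjusted p = 0.0682). Without replicate 1 or replicate 2 of intact cells under AA it was called at 0.19 and 0.20 (edgeR, adjusted p = 0.0382 and 0.0265). It was also called with library size only and without a filter (edgeR, adjusted p = 0.0145 and 0.0197), but not on the log2(FPKM + 1) scale (limma, adjusted p = 0.0867). CASP6 and CASP8 lay at -0.05 ± 0.09 and -0.08 ± 0.06 (edgeR, adjusted p = 0.646 and 0.287). These comparisons share libraries with the AA effects above and are not separate evidence.

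Per length, GSDME was the most abundant of the 8 transcripts and DIABLO came next in all 4 groups. GSDME averaged 60.0 ± 0.31 FPKM in deficient cells under AA, 49.2 ± 1.17 FPKM in deficient cells under PBS, 45.7 ± 1.34 FPKM in intact cells under AA and 46.6 ± 0.37 FPKM in intact cells under PBS (SD, n = 3 each). DIABLO averaged 39.7 ± 2.28 FPKM in deficient cells under AA, 34.5 ± 1.33 FPKM in deficient cells under PBS, 30.1 ± 0.74 FPKM in intact cells under AA and 30.7 ± 1.06 FPKM in intact cells under PBS. At the other end, APAF1 was lowest in deficient cells under AA, at 5.11 ± 0.41 FPKM, below CASP2 at 8.18 ± 0.89 FPKM. In deficient cells under PBS, CASP6 was lowest at 7.97 ± 0.77 FPKM, below APAF1 at 9.42 ± 0.55 FPKM, and CASP2 stood at 17.7 ± 0.52 FPKM, next below DIABLO, where its range overlapped that of CASP8. In intact cells under AA, XIAP, CASP2, CASP6 and APAF1 stood between 10.1 and 12.3 FPKM and each overlapped its neighbour in the order. In intact cells under PBS, CASP6 was lowest at 7.71 ± 0.43 FPKM, CASP8 overlapped XIAP, and XIAP overlapped CASP9.

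Transcript length ran along with the direction of change and bears on several of these calls. When all tested genes were split into 5 bins of equal size by the length implied by counts and FPKM, the median log2 fold change under AA was 0.38, 0.17, -0.03, -0.17 and -0.39 from the shortest to the longest bin in deficient cells. In intact cells it was 0.31, 0.11, -0.02, -0.14 and -0.30. Under PBS, the medians between genotypes stayed between -0.01 and 0.01. DIABLO (1316 bases), CASP6 (1565), CASP9 (1738) and GSDME (2136) are the shortest of the 8 and are those that rose in deficient cells. CASP2 (4088), XIAP (4516) and APAF1 (6687) are the longest and are those that fell.

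With the length offset 4 of 8 were called in deficient cells, 2 higher (GSDME and CASP9) and 2 lower (CASP2 and APAF1), against 35.8% of all tested genes higher and 34.9% lower in that fit. In intact cells 3 were called higher (CASP6, CASP9 and APAF1) and 3 lower (CASP2, XIAP and DIABLO), against 33.4% and 31.6%. GSDME stood at 0.23 ± 0.04 and CASP2 at -0.99 ± 0.05 in deficient cells (edgeR, adjusted p = 4.47e-06 and 7.02e-14). For the difference between the effects 1 was called higher and 2 lower, against 22.2% and 22.7%, at 0.28 ± 0.05 for GSDME, -0.56 ± 0.08 for CASP2 and -0.85 ± 0.08 for APAF1 (edgeR, adjusted p = 7.66e-05, 1.55e-06 and 2.7e-09). Between genotypes under AA 6 of 8 were called in this fit, 3 higher and 3 lower, against 58.8% of all tested genes called in either direction. The difference in XIAP between genotypes under AA was among these calls, at 0.22 ± 0.06 (edgeR, adjusted p = 0.00434).

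**Figure D4:**
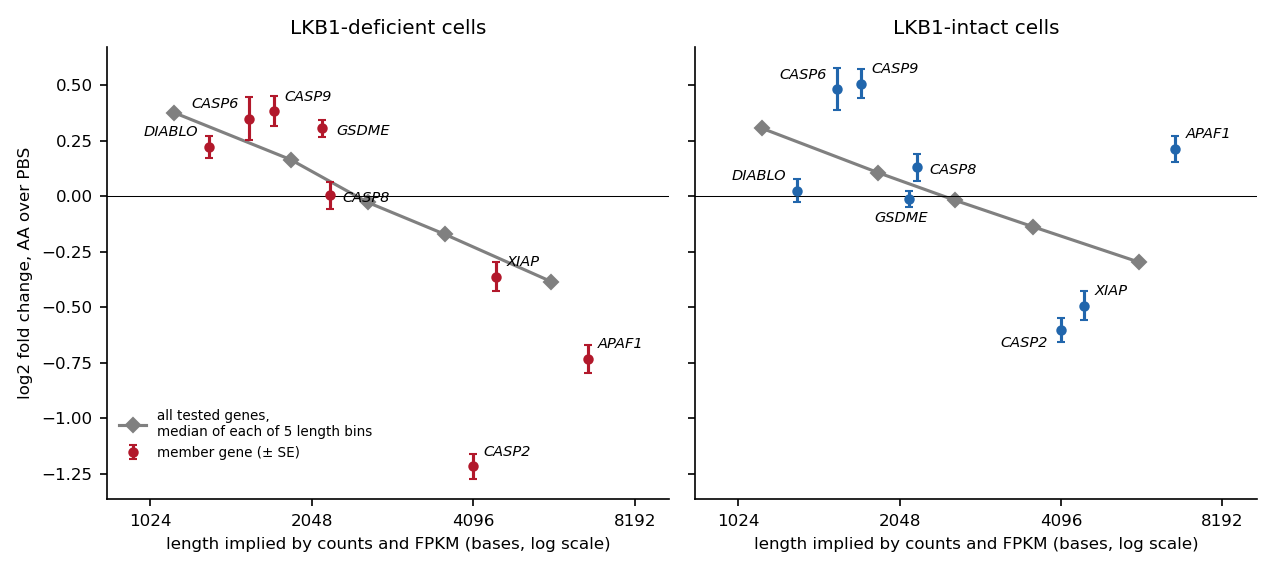
AA effect (log2 fold change, AA over PBS, with SE bars) of the 8 genes against the transcript length implied by the deposited counts and FPKM (log axis), in LKB1-deficient cells on the left and LKB1-intact cells on the right. Grey diamonds are medians of all tested genes in 5 bins by length; CASP2 at -1.22 in deficient cells and APAF1 at 0.21 in intact cells lie far from the grey line.

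Around the 8 genes, 5 lists of the same pathways were described by their counts and medians. Beside these counts stand the shares of all tested genes, 37.0% called higher and 37.4% lower in deficient cells and 34.5% and 35.2% in intact cells. Those shares were 35.8% and 34.9% in deficient cells and 33.4% and 31.6% in intact cells with the length offset. Of 5 other caspase genes 3 were tested, with 2 higher and 0 lower in deficient cells (median log2 fold change 0.28) and 3 higher and 0 lower in intact cells (0.65). Medians over all tested genes were 0.01 in both genotypes. With the length offset 2 of these caspase genes were higher and 0 lower in deficient cells (median 0.39), and 3 higher and 0 lower in intact cells (median 0.45). CASP4, an inflammatory caspase that senses lipopolysaccharide, rose by 0.92 ± 0.04 in deficient cells and 0.32 ± 0.04 in intact cells (edgeR, adjusted p = 6.66e-15 and 4.06e-07), a difference of 0.59 ± 0.06 (edgeR, adjusted p = 2.56e-08). CASP1, the inflammasome caspase, and CASP10 rose by 0.65 ± 0.10 and 0.68 ± 0.13 in intact cells (edgeR, adjusted p = 4.35e-06 and 0.000101). CASP10 was at 0.28 ± 0.14 in deficient cells, not called, and its effects differed by -0.41 ± 0.19, also not called (edgeR, adjusted p = 0.078 and 0.0922). With the length offset its value in deficient cells was called, at 0.385 ± 0.139 (edgeR, adjusted p = 0.0164). CASP1 rose by 0.27 ± 0.10 in deficient cells (edgeR, adjusted p = 0.0182), a call that was lost with the sign turned under the length offset (-0.02) and lost without replicate 1 of deficient cells under AA (edgeR, adjusted p = 0.094).

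Of 15 genes of death receptors, their ligands, adaptors and regulators, 13 were tested. PIDD1 and CRADD, described above with CASP2, are among the 13. Under AA 2 were higher and 6 lower in each genotype, with medians of -0.25 in deficient and 0.08 in intact cells. With the length offset 1 was higher and 5 lower in deficient cells (median -0.22) and 3 higher and 6 lower in intact cells (median -0.11). TNFRSF10B, which encodes the TRAIL receptor DR5, rose by 0.31 ± 0.03 in deficient cells and fell by 0.53 ± 0.04 in intact cells (edgeR, adjusted p = 2.7e-08 and 1.66e-11). The difference was 0.84 ± 0.05 (edgeR, adjusted p = 9.01e-12). RIPK1, the gene of a kinase of these complexes, and FADD, that of the adaptor binding caspase-8, fell by 1.1 ± 0.06 and 0.85 ± 0.07 in deficient cells (edgeR, adjusted p = 1.85e-13 and 5.41e-10), and by 0.71 ± 0.06 and 0.50 ± 0.07 in intact cells (edgeR, adjusted p = 3.28e-10 and 1.65e-06). CFLAR, the gene of the caspase-8 inhibitor FLIP, and TNFRSF21, the gene of death receptor 6, fell by 0.40 ± 0.08 and 0.49 ± 0.09 in deficient cells (edgeR, adjusted p = 0.000113 and 3.88e-05) and by 1.12 ± 0.08 and 1.23 ± 0.09 in intact cells (edgeR, adjusted p = 1.32e-10 and 1.18e-10). On the log2(FPKM + 1) scale CFLAR was at 0.07 ± 0.10 in deficient cells and not called (limma, adjusted p = 0.523). Their effects were 0.72 ± 0.12 and 0.74 ± 0.13 higher in deficient than in intact cells (edgeR, adjusted p = 3.18e-05 and 6.16e-05). CASP8, whose product is recruited by these complexes, is the member of the axis with no call.

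A list of 12 other genes covered the apoptosome, the IAPs (inhibitor of apoptosis proteins), their antagonists and mitochondrial death factors outside these groups. Of these 11 were tested, with 4 higher and 2 lower in deficient cells and 4 higher and 4 lower in intact cells (medians 0.10 and 0.05). With the length offset 3 were higher and 4 lower in deficient cells and 4 higher and 4 lower in intact cells, and both medians were negative (-0.08 and -0.07). BIRC3, the gene of the inhibitor cIAP2, fell by 0.72 ± 0.04 in deficient cells and by 1.51 ± 0.05 in intact cells (edgeR, adjusted p = 2.94e-12 and 5.97e-17). BIRC6, a giant ubiquitin ligase of the family, fell by 0.83 ± 0.05 in deficient cells (edgeR, adjusted p = 5.5e-13), and was at -0.08 and not called with the length offset (edgeR, adjusted p = 0.0705). HTRA2, the gene of a mitochondrial protease that also antagonises XIAP, rose by 0.44 ± 0.08 in deficient cells and by 0.81 ± 0.08 in intact cells (edgeR, adjusted p = 8.09e-05 and 1.92e-08). BIRC2, the gene of cIAP1, fell by 0.33 ± 0.04 in intact cells (edgeR, adjusted p = 1.87e-07), and its effect was 0.39 ± 0.06 higher in deficient cells (edgeR, adjusted p = 5.28e-06).

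Of 12 genes of cell demolition, encoding products that caspases cut or partners of these, 11 were tested. In deficient cells 0 were higher and 10 lower under AA, with a median of -0.42, against 37.0% and 37.4% of all genes, and in intact cells 3 were higher and 5 lower, with a median of -0.09, against 34.5% and 35.2%. With the length offset the counts in deficient cells were 2 higher and 8 lower (median -0.16), and in intact cells 6 higher and 3 lower (median 0.06). PANX1, the gene of a membrane channel opened by caspases, fell by 1.19 ± 0.05 in deficient cells and by 1.42 ± 0.06 in intact cells (edgeR, adjusted p = 1.99e-14 and 2.52e-15). LMNB1, encoding lamin B1, fell by 0.48 ± 0.03 in deficient cells, and its effect was 0.61 ± 0.05 lower there than in intact cells (edgeR, adjusted p = 3.15e-11 and 1.06e-09). The effects on ACIN1, which encodes acinus of chromatin condensation, and LMNA, encoding lamins A and C, were 0.43 ± 0.04 and 0.32 ± 0.04 lower in deficient cells (edgeR, adjusted p = 7.84e-08 and 1.83e-06). SPTAN1, encoding an alpha spectrin, fell by 0.42 ± 0.03 in deficient cells (edgeR, adjusted p = 2.18e-11). With the length offset it was at 0.08 ± 0.03 and called higher (edgeR, adjusted p = 0.0131). PAK2, a kinase gene, fell by 0.48 ± 0.05 in intact cells (edgeR, adjusted p = 2.91e-08).

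**Figure D5:**
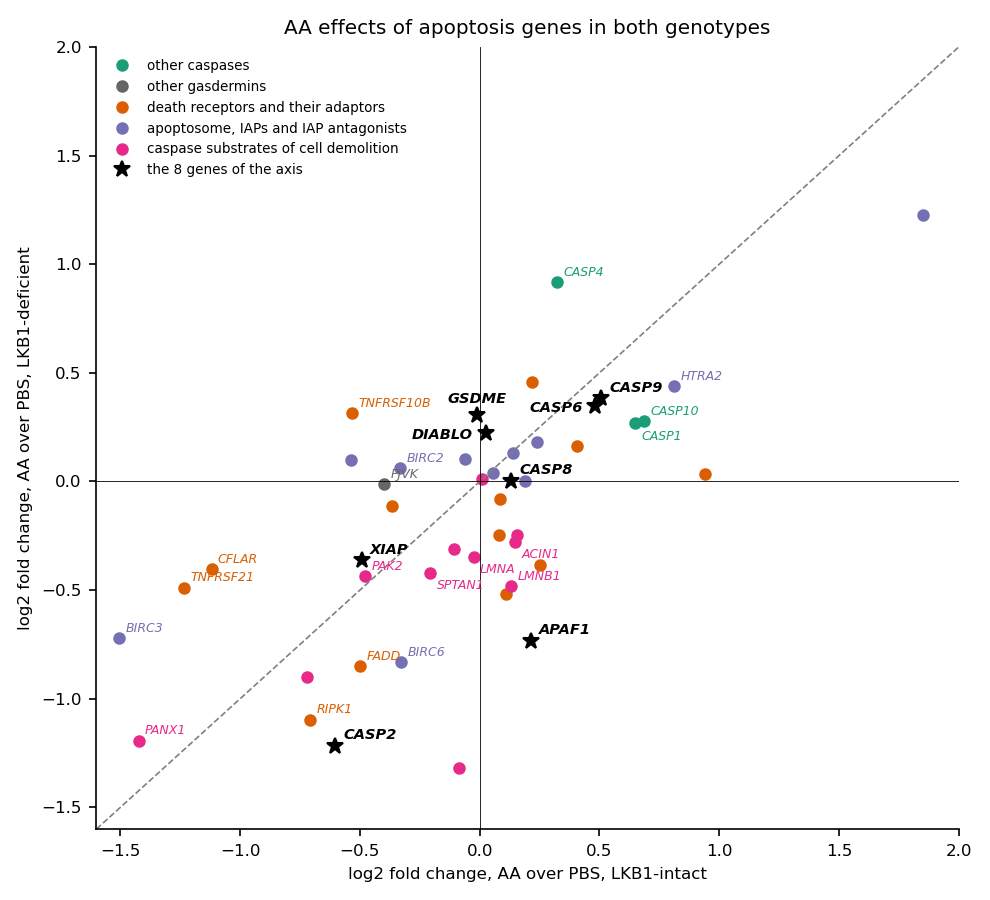
AA effect in LKB1-deficient cells (y axis) against that in LKB1-intact cells (x axis), log2 fold changes, for the tested genes of the 5 lists and the 8 genes of the axis (stars) on 1 scale; the dashed line marks equal effects. GSDME and APAF1 lie on opposite sides of the dashed line, at 0.31 and -0.73 on the y axis.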

How the data were processed

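Libraries of A549 cells were grouped by the genotype and treatment given in their labels, with LKB1-intact taken from the series design for the label WT. Per the submitters' processing notes, RSEM, StringTie (version 1.3.1), HISAT2 (version 2.1.0), Bowtie2 (version 2.2.8) and fastp (version 0.18.0) were used, in roles not stated, and genome build and strand are not given. Per the file headers, the authors deposited estimated counts per gene, of which 10.9 to 11.5% in a library carry a fraction. The authors also deposited FPKM values, which are divided by transcript length and depth.

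Estimated counts were rounded and filtered by group at a minimum count of 10, leaving 12718 genes and 99.97% of counts. TMM factors ran from 0.987 to 1.033. With edgeR 4.0.16 (R 4.3.3), a quasi-likelihood model with group as its factor was fitted to 12 libraries for 5 comparisons, and p-values were adjusted over all tested genes. The standard error is the log2 fold change divided by the square root of F, with a median of 0.0706 in deficient cells. Libraries of a group differed by more than counting noise, so none was a copy. Positions come from GENCODE 29 on GRCh38, which may differ from the authors' build. Alternatives included DESeq2 1.42.0, limma 3.58.1 on log2 FPKM (pseudocounts 1 and 0.1; genes at 1 FPKM or more in 3 libraries), limma-voom, other factors and filters, the replicate number as a block and each library left out. A length offset (lowess, span 0.3) was added after seeing the data.

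The 8 genes and the 5 lists were chosen with earlier results of these data known. All 8 were named. So were STK11, up to 3 called genes of smallest p per list and AA comparison (or 2 of highest level where none was called), and the 5 genes correlating best with GSDME among those with a mean log2 CPM of at least 3. PIDD1 and CRADD were added after their values were seen. Some genes are not reported here.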

Additional observations from a re-analysis of the deposited data

Results flagged for a closer look

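The effect of AA differed between deficient and intact cells, by the edgeR test of the difference itself, for 4 of the 8 genes of the axis. The difference, deficient minus intact on the log2 scale, was 0.32 for GSDME, 0.2 for DIABLO, -0.61 for CASP2 and -0.95 for APAF1. That of DIABLO was not called with DESeq2 (adjusted p = 0.065), in 5 edgeR fits with 1 library left out, or with the length offset. Genes with such a difference were common in these data, at 44.6% of all tested genes.

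Among other caspases the difference was 0.59 for CASP4 and -0.38 for CASP1, which was not called with DESeq2 (adjusted p = 0.0655). That of CASP1 was also not called with library size only or without a filter (edgeR, adjusted p = 0.0637 and 0.0561). Nor was it called without replicate 2 of intact cells under PBS or under AA (edgeR, adjusted p = 0.0952 and 0.0588). Its call was lost too without replicate 1 of deficient cells under PBS or replicate 2 under AA (edgeR, adjusted p = 0.0562 and 0.0746). Among death receptor genes and their adaptors the difference was 0.84 for TNFRSF10B, 0.74 for TNFRSF21, 0.72 for CFLAR, -0.39 for RIPK1 and -0.35 for FADD. In the family of IAPs and their antagonists it was 0.78 for BIRC3, 0.39 for BIRC2, -0.5 for BIRC6 and -0.37 for HTRA2. On the log2(FPKM + 1) scale that of BIRC6 was -0.148 and not called (limma, adjusted p = 0.39). Among genes of caspase substrates it was 0.23 for PANX1, -0.21 for SPTAN1, -0.61 for LMNB1, -0.43 for ACIN1 and -0.32 for LMNA. That of PANX1 was not called in edgeR without replicate 1 or 3 of deficient cells under AA or replicate 3 of deficient cells under PBS (adjusted p = 0.0586, 0.0564 and 0.0583).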

How the results depend on the processing

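There were 840 alternative values of the 8 genes, among them the main values judged again at an adjusted p under 0.01. Of these, 764 kept their direction and side of the threshold, 28 lost a call and 8 gained one. Sign changed in 8 others where the main or the alternative value was called, and in 32 where neither was. All values of GSDME and CASP2 kept direction and call, but for 2 uncalled ones of each that moved across 0. With limma on log2 FPKM (pseudocount 1, pseudocount 0.1, and 1 without filter), the AA effect in deficient cells was 0.135, 0.143 and 0.135 for XIAP and 0.073, 0.077 and 0.073 for CFLAR, and CASP9 between genotypes under AA was 0.034, 0.035 and 0.034. These 3 FPKM fits called 3 of the 8 under AA in intact cells, against 5, where they called 64.9%, 64.7% and 47.0% of all genes. They also placed 60.3%, 60.0% and 59.8% of the calls for the difference above 0, against 48.4% in the count fit, and 60.3%, 60.0% and 58.9% under AA between genotypes, against 48.7%. Counts scaled by library size alone gave 57.9% and 57.5%; the cause was not tested. With the length offset 4 of the 8 were called in deficient cells. With that offset the AA effect in deficient cells was -0.097 for DIABLO, -0.024 for CASP1 and 0.079 for SPTAN1, and in intact cells -0.192 for DIABLO, 0.275 for BIRC6 and 0.186 for SPTAN1. All of these but DIABLO and CASP1 in deficient cells were called. Without the offset, BIRC6 and SPTAN1 were called lower in intact cells, at -0.328 and -0.206 (edgeR, adjusted p = 1.41e-06 and 1.92e-06).

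Genes called between genotypes under PBS numbered 35, against 5 at an adjusted p under 0.01, 54 with DESeq2, 111 without a filter, 5, 5 and 4 in the FPKM fits, 56 with the length offset and 6 to 28 with 1 library left out. Same-numbered libraries did not deviate together (correlations of -0.094 to 0.054). These values cannot tell whether libraries were prepared together by number, and the labels do not state it. With the replicate block 7, 5, 4, 0 and 4 of the 8 were called under AA in deficient cells, under AA in intact cells, for the difference, under PBS and under AA between genotypes, where CASP9 was the call lost (edgeR, adjusted p = 0.058). The block called 73.9%, 69.0%, 43.7%, 0.252% and 58.2% of all genes in the same 5 comparisons. CASP6, at 182 to 361 counts, had the widest errors of the 8 in the edgeR count fit.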
